A study of Mus musculus with 6 samples.

Results

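The assays examined here were those for the mouse miRNAs numbered miR-297, miR-466, miR-467 and miR-669, most of which lie in a cluster inside the gene Sfmbt2. They were chosen by name alone, with any letter, arm or asterisk, and numbered 31 of the 596 mouse miRNA assays in the table, with 9 on card A and 22 on card B. By number they comprised 3 assays of miR-297, 8 of miR-466, 10 of miR-467 and 10 of miR-669.

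The RNA came from the whole aortas of 6 female Apoe-deficient mice, 1 mouse per sample, and was profiled on quantitative PCR array cards. All mice carried the VE-Cadherin-CreERT2 transgene, a Cre recombinase that tamoxifen activates and whose promoter is active in endothelial cells (ECs), and all received tamoxifen (2 mg per 20 g body weight) on 5 days. At 6 to 8 weeks of age they began 12 weeks on a high-fat diet, in which crude fat made up 21%, casein 19.5% and cholesterol 0.15%. In the 3 EC-Dicerflox mice (VE-Cadherin-CreERT2Dicer1flox/flox/Apoe-/-) both copies of Dicer1 could be deleted by Cre. The 3 EC-DicerWT mice (VE-Cadherin-CreERT2Dicer1WT/WT/Apoe-/-) were littermates with intact Dicer1. Dicer1 mRNA was not part of the table, so the deletion was not checked here. For the scale of the PCR cycles below, the smooth muscle miRNAs miR-145 and miR-143 gave a signal at cycles 14.5 to 14.8 and 15.8 to 16.5, and the endothelial miR-126-3p at 17.2 to 17.8. In whole tissue, fewer cells of a type and less RNA per cell cannot be told apart.

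Dicer cuts the hairpin precursors of nearly all miRNAs into short duplexes, of which usually 1 strand is kept as the guide. Sfmbt2 encodes a polycomb-group protein, is imprinted and expressed from the paternal copy, and is needed in the trophoblast of the placenta. An intron of the mouse gene carries a large rodent-specific miRNA cluster in which a few units were copied many times, so that its members differ by few bases and many occur as several gene copies. The cluster is known for its expression in embryonic stem cells and placenta. In the vessel wall, miR-467b is the member best known, as a repressor of lipoprotein lipase in macrophages.

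The label was checked against the RefSeq annotation of GRCm38.p6. For 24 of the 31 assays every gene of the name lay within the bounds of Sfmbt2 on chromosome 2. The name miR-669a had 12 such genes and miR-467a had 10. For miR-297a*, 3 genes lay inside Sfmbt2 and 1 on chromosome 7. MiR-466j (chromosome 10), miR-466k and miR-669n (both chromosome 3), miR-467f (chromosome 11) and miR-467h (chromosome 9) lay elsewhere, so these 5 belong to the family by name and not to the cluster by place. The name miR-466a-3p was not matched to a gene. The group is therefore called the family of miR-297, miR-466, miR-467 and miR-669 below.

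Of the 31 assay names, 5 matched a mature miRNA of RefSeq (GRCm38.p6) exactly, and these are the 5 with genes outside Sfmbt2. Their sequences are shown for the stretches of alternating bases they hold, and what is said of them covers these 5 and no member inside Sfmbt2. They are printed 5′ to 3′, with the seed (bases 2 to 8), which pairs with target mRNAs, in capitals.
miR-466j: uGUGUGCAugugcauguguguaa
miR-466k: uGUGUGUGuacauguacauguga
miR-467h: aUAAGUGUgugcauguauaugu
miR-669n: aUUUGUGUguggaugugugu
miR-467f: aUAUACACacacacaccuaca

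Their places on GRCm38.p6 are chr10:60960802-60960824 on the plus strand for miR-466j, chr3:85467396-85467418 on the plus strand for miR-466k, chr9:115381898-115381919 on the plus strand for miR-467h, chr3:115979905-115979924 on the plus strand for miR-669n and chr11:69635419-69635439 on the minus strand for miR-467f. All 5 hold UGUGUG or ACACAC, read on the RNA as written, against 39 of the 1674 different mature sequences of the table (2.33%). MiR-467f stood apart, with 85.7% A and C in its bases and an alternating run of 12, whereas the other 4 were 68.2% to 90.0% G and U with alternating runs of 7 to 9. The 5 seeds all differed. Only that of miR-467h recurred under another name in the table, miR-668-5p. How far an assay also amplifies its close relatives was not tested, so a value belongs to an assay and may be shared by several family members.

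The table held raw threshold cycles (Ct), which count how many rounds of PCR an assay needed to reach a fixed signal. Early signals mean more RNA, and 40 stands for not detected. Of the 31 assays, 21 (67.7%) were detected in all 6 samples, against 394 of all 596 assays (66.1%). Another 5 were detected in 3 to 5 samples and 2 in 1 or 2 samples. The remaining 3, miR-466d-5p, miR-467e* and miR-669g, were at 40 in every sample (9.68%, against 17.8% of all assays). Among assays detected in all samples the median of the mean Ct was 27.9 for the family and 26.9 for all miRNAs.

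The number of family assays detected was 26, 23 and 25 in the EC-Dicerflox aortas and 27, 26 and 23 in the EC-DicerWT aortas. The means were 24.7 ± 1.53 (SD, n = 3) and 25.3 ± 2.08 (SD, n = 3), a difference smaller than the spread between mice. Of the 150 wells with a signal, 16 crossed at Ct 35 or later. A plant miRNA assay, which should find nothing in mouse RNA, gave a Ct of 39.8 in 1 of its 12 wells, and 1 family well, miR-466e-5p in EC-DicerWT replicate 1, was later than that.

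**Figure D1:**
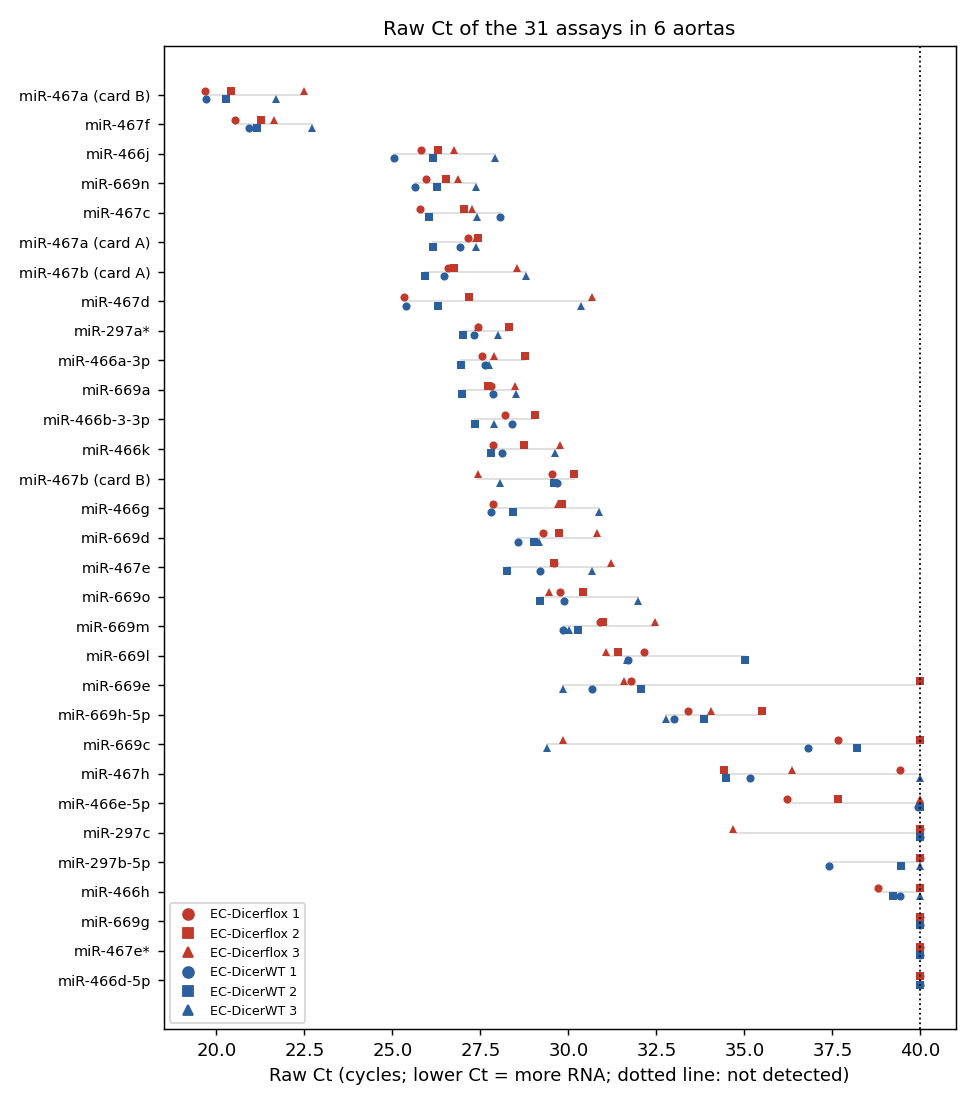
Raw Ct in cycles (horizontal axis) of each of the 31 assays, ordered by the mean over 6 samples, with EC-Dicerflox in red, EC-DicerWT in blue and replicates 1, 2 and 3 as circles, squares and triangles. Grey lines span each assay's range, the dotted line at 40 marks wells without signal, where points of a group lie on top of each other. The card B assay named miR-467a and miR-467f lie near Ct 21, about 5 cycles before the next assay, and in miR-467d and miR-669c the triangles of both groups lie away from the other points.

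Levels were highest for the card B assay named miR-467a and for miR-467f. The card B assay named miR-467a had a Ct of 19.7, 20.4 and 22.5 in EC-Dicerflox and 19.7, 20.3 and 21.7 in EC-DicerWT aortas. The third sample of each group had the highest Ct, and the groups overlapped. The assay ranked 60 by mean Ct among the 596. MiR-467f had a Ct of 20.5, 21.3 and 21.6 in EC-Dicerflox and 20.9, 21.2 and 22.7 in EC-DicerWT aortas and ranked 71. Its groups overlapped too, and the mean Ct of both assays (20.7 and 21.4) differed by less than the range over mice. Ct between assays also depends on the efficiency of each assay, which was not measured, so the ranks are those of the signals.

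The next assays followed at a distance and lay close together. MiR-466j had a Ct of 25.8, 26.3 and 26.8 in EC-Dicerflox and 25.05, 26.2 and 27.9 in EC-DicerWT aortas. MiR-669n had 25.97, 26.5 and 26.9 in EC-Dicerflox and 25.7, 26.3 and 27.4 in EC-DicerWT aortas. In both, the EC-DicerWT values enclosed those of EC-Dicerflox. MiR-467c had 25.8, 27.04 and 27.3 in EC-Dicerflox and 28.1, 26.1 and 27.4 in EC-DicerWT aortas, with its latest signal in EC-DicerWT replicate 1. The card A assay named miR-467a had 27.1, 27.4 and 27.4 in EC-Dicerflox and 26.9, 26.2 and 27.4 in EC-DicerWT aortas. The mean Ct of these 4 assays ran from 26.3 to 27.1, and neighbours in this order were within the range of each other's samples. Of the 5 miRNAs with genes elsewhere, miR-467f, miR-466j and miR-669n were thus among the 4 assays with the lowest mean Ct, and miR-467h (34.4 to 40) was among the late ones.

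For comparisons between groups, the Ct of an assay was subtracted from a reference Ct of its sample, which gives a level in log2 units if each cycle doubles the product. The reference was the mean of 5 control small RNAs. Its mean was 19.9 (SD 0.46, n = 3) for EC-Dicerflox and 19.7 (SD 0.39, n = 3) for EC-DicerWT mice. Tests were limited to assays with a signal in 3 or more samples, that is 26 family assays among 439 in all, and P values of limma were adjusted over the 439 by the Benjamini-Hochberg method.

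None of the 26 tested family assays had an adjusted limma P under 0.05 (background 0%, or 0 of 439), and their adjusted P values ran from 0.976 to 0.994. At an unadjusted limma P under 0.05, 3 of the 26 passed (11.5%), against 4.78% of all tested assays. Of these, 2 were lower in EC-Dicerflox (background 3.87%) and 1 was higher (background 0.911%). Among the 26, 16 were lower and 10 higher (61.5% lower, against 61.7% of all tested assays). Their median change was -0.09, beside -0.10 for all tested assays. The median was -0.13 for the 19 tested assays with all genes inside Sfmbt2, of which 12 were lower, and 0.15 for the 5 with genes elsewhere, of which 2 were lower. With U6 alone as reference the median of all tested assays moved to -0.48 and that of the family to -0.47. The family thus stayed close to all assays, with 21 of the 26 lower. The U6 Ct on card B was 16.6 in EC-DicerWT replicate 1 and 15.1 to 15.4 in the other samples. The part of this well in the shift was not tested.

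**Figure D2:**
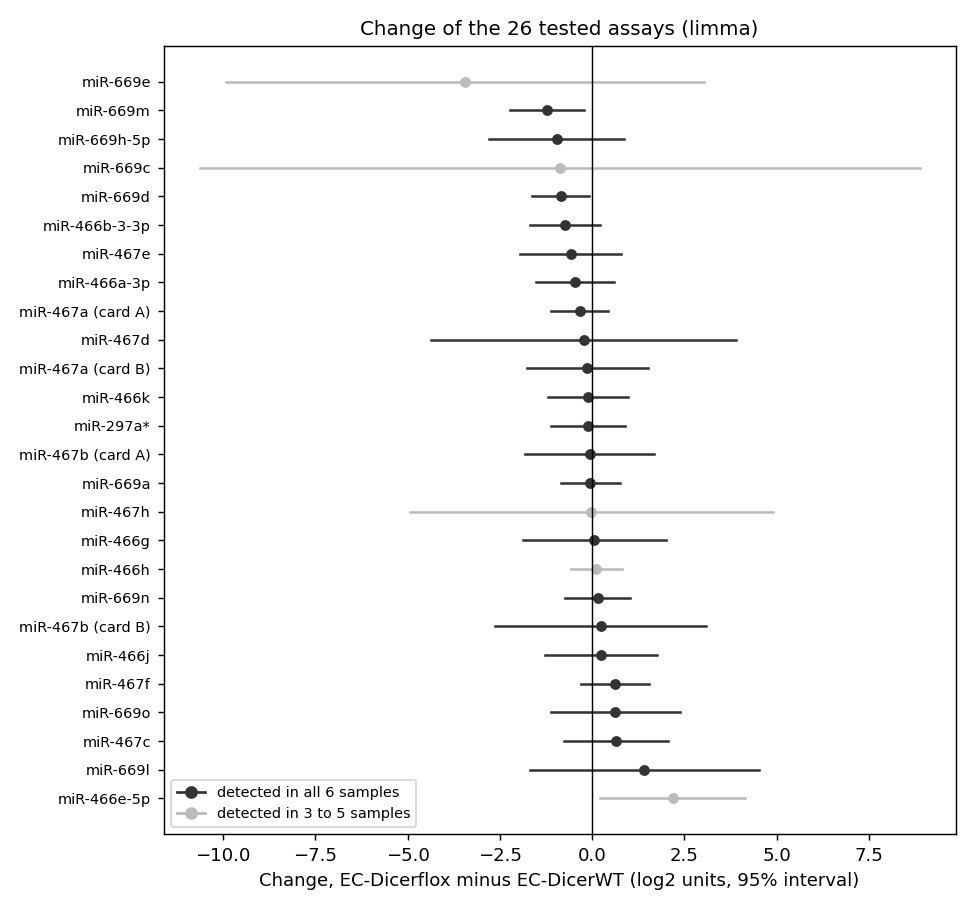
Change of each of the 26 tested assays, EC-Dicerflox minus EC-DicerWT in log2 units (horizontal axis), with limma's 95% interval as a line, dark for assays detected in all 6 samples and grey for those detected in 3 to 5. The intervals of miR-669m, miR-669d and miR-466e-5p do not reach 0, and those of miR-669e and miR-669c span more than 10 units.

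MiR-669m and miR-669d, both with genes inside Sfmbt2, were the lower assays that passed the unadjusted threshold. MiR-669m had a Ct of 30.9, 30.98 and 32.5 in EC-Dicerflox and 29.9, 30.3 and 30.03 in EC-DicerWT aortas. All EC-Dicerflox values were later than all EC-DicerWT values, with EC-Dicerflox replicate 3 the latest. On the level scale the means were -11.56 (SD 0.50, n = 3) for EC-Dicerflox and -10.33 (SD 0.49, n = 3) for EC-DicerWT. EC-Dicerflox aortas thus had 42.7% of the level of the others, a change of -1.23 ± 0.40 (SE, 95% interval -2.23 to -0.23) at a limma P of 0.025 unadjusted and 0.98 adjusted.

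MiR-669d had a Ct of 29.3, 29.7 and 30.8 in EC-Dicerflox and 28.6, 29.02 and 29.2 in EC-DicerWT aortas, again without overlap. Its mean levels were -10.05 (SD 0.36, n = 3) for EC-Dicerflox and -9.19 (SD 0.33, n = 3) for EC-DicerWT. EC-Dicerflox aortas had 55.2% of the level of the others, a change of -0.86 ± 0.31 (SE, 95% interval -1.63 to -0.08) at a limma P of 0.036 unadjusted and 0.98 adjusted. The exact permutation test gave 0.1 for both assays, its lowest possible P with 3 mice per group. Both were lower in all 18 alternative fits, but the unadjusted limma P stayed under 0.05 in 10 of them for miR-669m and in 7 for miR-669d. Without the third replicates the changes were -0.73 (unadjusted limma P of 0.12) and -0.55 (unadjusted limma P of 0.19). Leaving out EC-Dicerflox replicate 1 or 3, or EC-DicerWT replicate 1 or 3, took each of them over 0.05, and so did EC-Dicerflox replicate 2 for miR-669d.

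MiR-466e-5p was the higher assay that passed, and its values lay at the limit of detection. Its Ct was 36.2, 37.7 and 40 in EC-Dicerflox and 39.9, 40 and 40 in EC-DicerWT aortas, so that both groups held wells without signal. The fitted change of 2.18 ± 0.78 (SE, limma P of 0.036 unadjusted and 0.98 adjusted) depends on the value put in for those wells. With those wells left missing the change was 3.08, and EC-DicerWT then rested on the late well of replicate 1 alone. With a limit of Ct 35 the assay could not be tested. It passed in 7 of the 13 alternatives that tested it. Levels did not overlap between the groups in 3 of the 26 assays, miR-669m, miR-669d and miR-466e-5p (11.5%, against 9.79% of all tested assays), and for miR-466e-5p the raw Ct did overlap, at 40.

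Next in order of the unadjusted P came miR-466b-3-3p, miR-467f and miR-669e, none of which passed in the main fit. MiR-466b-3-3p had a Ct of 28.2, 29.1 and 29.1 in EC-Dicerflox and 28.4, 27.3 and 27.9 in EC-DicerWT aortas, with a change of -0.74 ± 0.37 (SE, 95% interval -1.68 to 0.20) and an unadjusted limma P of 0.10. Its earliest values were in EC-DicerWT replicates 2 and 3 and EC-Dicerflox replicate 1, so the groups overlapped. It passed in 1 of the 18 alternative fits. That was without EC-DicerWT replicate 1, at a change of -1.08 (limma P of 0.015 unadjusted and 0.97 adjusted). MiR-467f changed by 0.61 ± 0.36 (SE, 95% interval -0.31 to 1.54), with an unadjusted limma P of 0.15. Its change was 0.28 without EC-DicerWT replicate 3, 0.24 with U6 alone as reference and 0.87 without EC-DicerWT replicate 1. Its levels were tight in EC-Dicerflox (SD 0.15, n = 3) and wider in EC-DicerWT aortas (SD 0.61, n = 3). MiR-669e had a Ct of 31.8, 40 and 31.6 in EC-Dicerflox and 30.7, 32.1 and 29.8 in EC-DicerWT aortas, and the well without signal in EC-Dicerflox replicate 2 set its change of -3.44 ± 2.55 (SE). Without that sample it was -0.66.

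The abundant assays gave intervals on both sides of 0. The change was -0.13 (95% interval -1.77 to 1.50) for the card B assay named miR-467a and -0.34 (95% interval -1.11 to 0.43) for the card A assay of that name. It was 0.24 (95% interval -1.28 to 1.76) for miR-466j, 0.15 (95% interval -0.72 to 1.02) for miR-669n and 0.64 (95% interval -0.77 to 2.06) for miR-467c. The value of miR-467c ran from 0.12 without EC-DicerWT replicate 1 to 1.06 without EC-DicerWT replicate 2, and it was 0.27 with U6 alone as reference. MiR-669a, known to hold back muscle differentiation in cardiac progenitors by targeting MyoD, had a Ct between 26.98 and 28.5 and a change of -0.05 (95% interval -0.85 to 0.75). These intervals are too wide to show that the levels were alike.

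**Figure D3:**
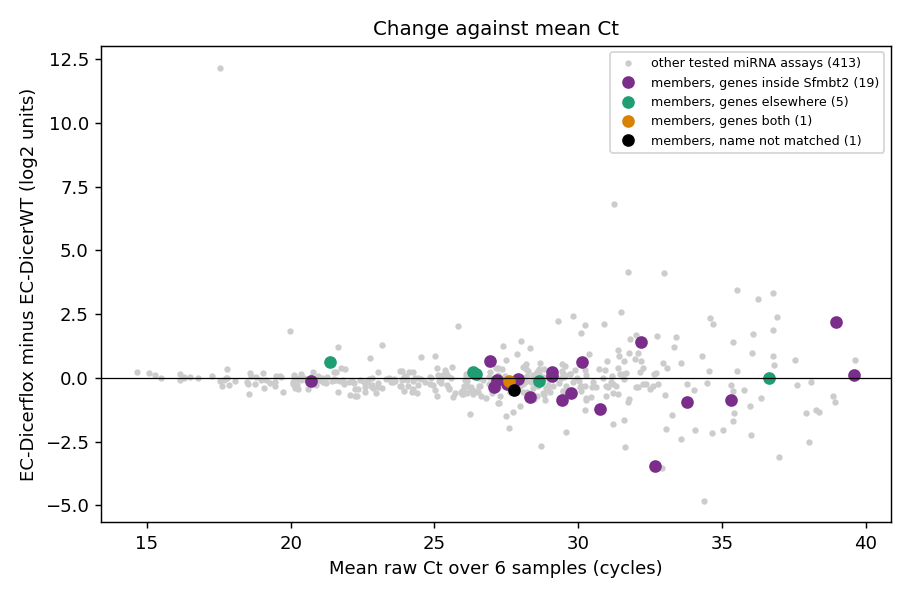
Change in log2 units (vertical axis) against mean raw Ct over 6 samples (horizontal axis) for the 439 tested miRNA assays, with the 413 other assays in grey and the 26 family assays coloured by where their RefSeq genes lie. The family lies within the cloud of the other assays, which widens from a Ct of about 30.

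The spread between mice was wider in this family than over all miRNA assays, in a comparison not matched for Ct. The family's signals were also later (median of the mean Ct 27.9, against 26.9). Among assays detected in all samples, the median SD within a group was 0.72 log2 units for the family and 0.45 for all miRNAs. It was 0.55 for the 17 family assays with a mean Ct under 30 and 1.07 for the 9 tested ones at 30 or over. In some assays the third sample of each group lay apart from the others, which was also seen outside the family. In miR-467d and miR-669c the third replicates of both groups were over 2 cycles away from the remaining 4 samples, later in miR-467d and earlier in miR-669c. The same distance was reached by 22 of all 596 assays, of which 15 were later and 7 earlier.

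MiR-467d had a Ct of 25.3 and 27.2 in EC-Dicerflox replicates 1 and 2 and 25.4 and 26.3 in those of EC-DicerWT. In the third replicates it was 30.7 and 30.4, at least 3.17 cycles later. MiR-669c had a Ct of 37.7 and 40 in EC-Dicerflox replicates 1 and 2 and 36.8 and 38.2 in those of EC-DicerWT. In the third replicates it was 29.9 and 29.4, at least 6.95 cycles earlier. Between the groups the changes were -0.23 (95% interval -4.36 to 3.90) for miR-467d and -0.88 (95% interval -10.63 to 8.87) for miR-669c, and their signs turned when single samples were left out.

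On the level scale, the third replicates of both groups lay outside the other 4 samples in 7 of the 21 family assays detected in all samples. They were lower in 5 (miR-467a on card B, miR-467b on card A, miR-467d, miR-466k and miR-467e) and higher in 2 (miR-467b on card B and miR-669l). Among all 394 such assays 46 were lower and 82 higher. Of the 10 control assays, 6 also had both values of replicate 3 later than those of replicates 1 and 2. These were snoRNA135 and snoRNA202 on both cards and U87 and Y1 on card B, whereas U6 on both cards and U87 and Y1 on card A were not set apart. On card B, the Ct of U87 was 21.3 to 22.5 in replicates 1 and 2 and 23.8 in the third of each group, and that of Y1 was 21.3 to 22.3 in replicates 1 and 2 and 24.3 and 22.5 in the third of EC-Dicerflox and EC-DicerWT. The part of the control RNAs, or of a run or batch, in these shifts was not tested. Each group held 1 such sample. With the third replicates as a term in the fit 3 of the 26 family assays had an unadjusted limma P under 0.05, against 28 of all 439, and 0 had an adjusted one, against 1 of all 439.

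The names miR-467a and miR-467b each occur on both cards, and the assays of a name did not give the same signal. The table does not say which strand each detects. For miR-467a, the Ct on card A minus that on card B was 7.47, 7.02 and 4.90 cycles in EC-Dicerflox and 7.21, 5.88 and 5.68 cycles in EC-DicerWT aortas. Card B was thus the earlier in every sample. The group means were 6.46 (SD 1.37, n = 3) and 6.26 cycles (SD 0.83, n = 3), with a difference of 0.21 (P = 0.9, exact two-sided permutation test, adjusted P of 0.9 over both names).

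For miR-467b the difference was -2.97, -3.40 and 1.11 cycles in EC-Dicerflox and -3.21, -3.66 and 0.72 cycles in EC-DicerWT aortas. Card A was earlier in replicates 1 and 2 of both groups and later in the third of each group. The group means of -1.75 ± 2.49 (SD, n = 3) and -2.05 ± 2.41 cycles (SD, n = 3) differed by 0.30 (P = 0.6, exact two-sided permutation test, adjusted P of 0.9). As levels, miR-467b changed by -0.07 on card A and 0.23 on card B between the groups, within the spread between mice. Of 13 miRNA names found on both cards, 7 were detected on both in all samples. The card difference of miR-467b ranged over 4.78 cycles across the 6 samples and that of miR-467a over 2.56 cycles, with a median of 2.48 cycles over the 7 names.

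**Figure D4:**
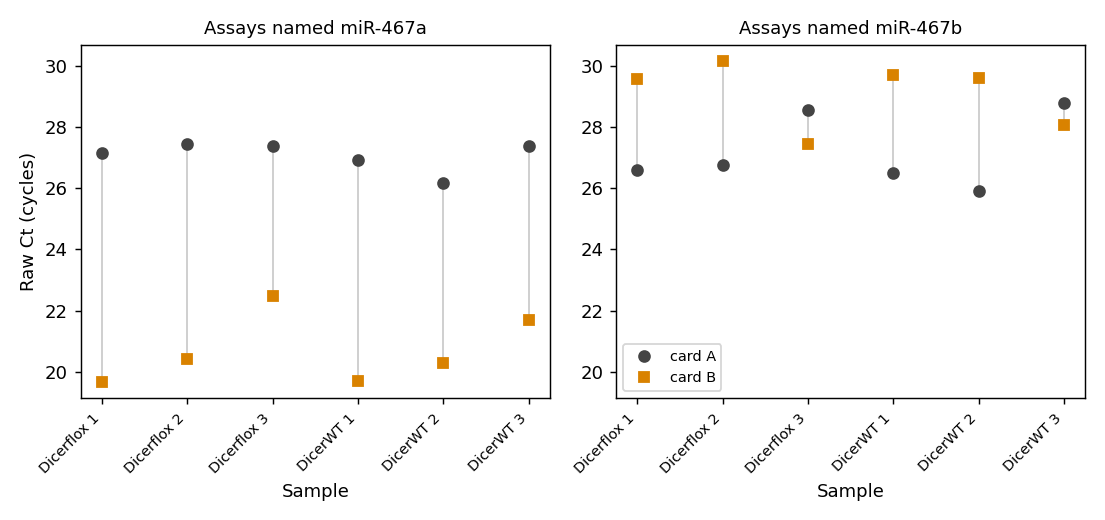
Raw Ct in cycles (vertical axis) of the assays named miR-467a (left) and miR-467b (right) in each of the 6 samples (horizontal axis), with card A as circles, card B as squares and a grey line joining both assays of a sample. For miR-467a the squares lie 4.90 to 7.47 cycles below the circles, and for miR-467b the order is turned in the third sample of each group.

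Both arms of a hairpin were assayed under separate names only for miR-467e. MiR-467e had a Ct of 29.6, 29.6 and 31.2 in EC-Dicerflox and 29.2, 28.3 and 30.7 in EC-DicerWT aortas, whereas miR-467e*, from the other strand, gave no signal in any sample. The gap was at least 8.80 cycles in each sample, and no group difference of the arms could be tested. The change of miR-467e was -0.59 ± 0.54 (SE).

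The remaining assays passed no threshold in the main fit. The changes of miR-466a-3p, miR-466g, miR-466k, miR-297a*, miR-669o, miR-669l and miR-669h-5p, all detected in every sample, ran from -0.96 for miR-669h-5p to 1.42 for miR-669l. MiR-669l owed its value to a Ct of 35.01 in EC-DicerWT replicate 2, against 31.1 to 32.1 in the other samples. MiR-467h (5 of 6 samples, Ct 34.4 to 39.4 where detected) and miR-466h (3 of 6, Ct 38.8 to 39.4) were late and changed by -0.02 and 0.12. MiR-297b-5p was detected in 2 EC-DicerWT aortas (Ct 37.4 and 39.5) and in 0 EC-Dicerflox aortas, and miR-297c only in EC-Dicerflox replicate 3 (Ct 34.7). Neither was tested.

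Other lists gave the setting. None of the tested marker assays of smooth muscle (3), endothelium (2), erythrocytes (2) and leukocytes (4) had an unadjusted limma P under 0.05. For striated muscle 1 of 4 did, against 21 of all 439 tested assays (4.78%). Of 55 tested assays of the imprinted Dlk1-Dio3 locus, 37 were lower (median -0.25) and 4 had an unadjusted limma P under 0.05. Over all 439 tested assays, 271 were lower (61.7%, median -0.10). Of 25 assays of the embryonic miR-290 to miR-295, miR-302 and miR-367 clusters, 5 could be tested. Of these, 2 were lower (median 2.23) and 0 had an unadjusted limma P under 0.05. Of the 31 family assays, 26 could be tested.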

How the data were processed

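Per the study's methods, small RNAs were reverse transcribed, preamplified and measured by TaqMan assays on a pair of array cards. What the authors deposited are raw Ct values without normalization, in which wells without signal stand at 40. The threshold setting is not given in the sources used here. The table names no card, so it was inferred from the assay number. RefSeq tables (GRCm38.p6) gave gene places and mature sequences.

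Levels were the mean Ct of U6, snoRNA135, snoRNA202, U87 and Y1 (cards averaged) minus the Ct of the assay. All mouse miRNA assays with a signal in 3 or more of 6 samples were fitted by lmFit and eBayes of limma 3.58.1 (R 4.3.3, two-sided, no replicate block), with Benjamini-Hochberg adjustment. The fit was tested on simulated data, but the outcome is not given here. That test therefore does not show how the fit handles wells without signal or the shifts shared by the third replicates. Single values were compared by exact permutation tests over 20 assignments (scipy 1.17.1). Ct values have no read depth. Precision rests on the number of mice and on the spread between them, which in the family was wider for late signals.

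Values per sample were given for the 6 smallest unadjusted P values, the 6 lowest mean Ct values, assays without overlap between groups, assays undetected in 1 group and detected in at least 2 samples of the other, those with the third replicates of both groups over 2 cycles outside the others, and both arms of a hairpin. The members and lists were chosen with earlier results of these data known, and the comparison of assays sharing a name was added after the data were seen. Alternatives were other references, filters and limits, missing wells, an intensity trend, a replicate block, a batch term for the third replicates and fewer samples.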

Additional observations from a re-analysis of the deposited data

Results flagged for a closer look

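A plant miRNA assay, a negative control that enters no comparison, gave a late signal on card A in EC-Dicerflox replicate 1, at Ct 39.776, while its other 11 wells on both cards gave none.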

How the results depend on the processing

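No family assay had an adjusted limma P under 0.05 in any of the 18 alternative fits. At the unadjusted threshold, 3 assays passed, 2 lower and 1 higher, against 21 of all 439. With the global mean as reference 2 passed, 1 of them lower, against 16 of all 439 assays. With U6 alone 1 passed in all, with 1 lower and 0 higher, against 11 of all 439, and the median change was -0.47. That reference includes the late U6 well on card B of EC-DicerWT replicate 1. With snoRNA135 alone and with an intensity trend 0 passed, with 0 lower and 0 higher, against 14 and 15 of all 439. With detection in all samples or a limit of Ct 35, 2 family assays passed in each fit, 2 lower and 0 higher. Of all assays 21 of 394 and 23 of 412 passed. In replicates 1 and 2 alone 1 passed and 0 were lower, against 18 of all 448. The family median was -0.41 there, with 21 of 27 assays lower, beside a median of -0.20 for all tested assays. Leaving out each replicate gave 0 to 2 assays, 0 to 2 lower and 0 to 1 higher, against 8 to 22 of all assays tested. The family median then ran from -0.40 without EC-DicerWT replicate 3 to 0.0877 without EC-DicerWT replicate 2. For all tested assays the median was -0.12 and -0.11 in these fits. The fewer samples tell in part. No family assay passed without EC-DicerWT replicate 3 or without EC-Dicerflox replicate 1, against 11 of all 438 and 14 of all 432. Otherwise the cause was not tested.

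With the replicate block 1 assay passed, miR-669h-5p, so 1 lower and 0 higher, against 17 of all 439. Deviations from the group means correlated by 0.15 between the first replicates, -0.06 between the second and 0.31 between the third. The first and second gave little basis for pairing mice by number. The third replicates shared the shifts described above, for which the main fit holds no term. No adjusted call differed with the block.

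Signs that turned belonged to changes within the spread between mice. MiR-466j was -0.14 and miR-669n -0.23 with U6 alone, and -0.31 and -0.14 in replicates 1 and 2. The card B assay of miR-467a was 0.10 in replicates 1 and 2, and miR-669c was 1.21 with wells without signal left missing. Without single replicates the ranges were -0.50 to 0.45 for miR-467a on card B, -0.31 to 0.82 for miR-466j, -0.11 to 0.46 for miR-669n, -1.51 to 1.02 for miR-467d and -4.11 to 2.04 for miR-669c. The arm comparison limited to pairs detected on both arms could not be run, since miR-467e* was not detected.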
